A study of Homo sapiens with 36 samples.

Results

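The genes described here encode the subunits of the complex that writes N6-methyladenosine (m6A) on messenger RNA, and a further m6A methyltransferase, METTL16: METTL3, METTL14, WTAP, VIRMA, ZC3H13, RBM15, RBM15B, CBLL1 and METTL16. They were chosen by name, matched by symbol to Ensembl identifiers, and are 9 of the 60675 genes in the deposited count table. The RNA came from HEK293T cells, an established human embryonic kidney line, in 3 lines that each expressed 1 m6A reader fused to an RNA-editing adenosine deaminase: YTHDF1-ADAR, YTHDF2-ADAR or YTHDF3-ADAR. Doxycycline (1 ug/mL for 24 h) induced the fusion in every line, so every library, inputs included, comes from cells with both a fusion and the drug. From each line, RNA was sequenced after immunoprecipitation (RIP) with an antibody to YTHDF1, YTHDF2 or YTHDF3, and from the unselected lysate (input), with 3 libraries in each of the 12 groups. The antibodies were raised to the endogenous proteins, and cells without a fusion and RIPs with a control antibody are not analysed here.

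METTL3 is the catalytic subunit of the writer complex and METTL14 is its partner, which helps to bind the RNA. WTAP anchors the pair to a regulatory group in which VIRMA acts as scaffold, ZC3H13 and CBLL1 (HAKAI) are accessory subunits, and RBM15 and RBM15B bind RNA and bring the complex to it. METTL16 is a separate methyltransferase that works alone on U6 snRNA and on the MAT2A message. YTHDF1, YTHDF2 and YTHDF3 are cytoplasmic proteins that bind m6A. The question put to the data is how far the writers' own messages are recovered with each reader, and how much they are edited in the fusion lines.

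On GRCh38, the genes lie on 9 different chromosomes: METTL3 at 14:21498133-21511342, METTL14 at 4:118685392-118715433, WTAP at 6:159725585-159756319, VIRMA at 8:94487689-94553529, ZC3H13 at 13:45954465-46052759, RBM15 at 1:110338506-110346681, RBM15B at 3:51391285-51397908, CBLL1 at 7:107743949-107761667 and METTL16 at 17:2405562-2511891. RBM15B consists of 1 exon block of 6624 bases, and the others of 3 (RBM15) to 22 (VIRMA). Counting ignored strand and included reads that overlap several genes. Reads over an exon shared with a gene on the opposite strand thus count toward both genes, whichever they came from. Such exons make up 20.0% of RBM15B (1325 bases shared with DCAF1), 6.81% of WTAP (SOD2), 6.66% of CBLL1 (CBLL1-AS1), 6.62% of METTL3 (TOX4), 3.75% of RBM15 (RBM15-AS1) and 2.56% of ZC3H13 (CPB2-AS1). METTL14, VIRMA and METTL16 share none. For the other 6, the share of reads that came from the partner gene was not measured. It may be larger or smaller than the share of exon.

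Libraries held 12.5 to 37.5 M (mega) counts. All 6 YTHDF1 RIP libraries from the YTHDF2-ADAR line and the YTHDF3-ADAR line stood apart, with the most snoRNA (0.657 to 4.28% of counts, against at most 0.539% in the other RIP libraries and 0.329% in inputs) and the most mitochondrial mRNA (3.15 to 8.58%, against at most 3.06% and 2.58%). Their counts were low (12.5 to 16.3 M), a range that also held YTHDF1-ADAR YTHDF2 RIP replicate 3 (15.9 M). Olfactory receptor genes took 32.3 to 54.3 per M counts in these 6, against at most 18.5 in the other RIP libraries and 13.9 in inputs. Protein-coding genes took 54.1 to 74.2% of their counts, against 82.8 to 92.4% and 71.5 to 79.1%. These 6 libraries were also the lowest on the first principal component, followed by YTHDF1-ADAR input replicate 1 and YTHDF1-ADAR YTHDF2 RIP replicate 3. Each fusion's gene was highest in its own line. YTHDF1 had 529 to 721 counts per M counts (CPM, with library scaling) in YTHDF1-ADAR inputs, against 85.5 to 98.5 CPM in inputs of the other lines. The neurofilament genes NEFM and NEFL, which HEK293T cells are known to express, averaged 702 and 305 CPM in inputs, while of 11 genes that mark other cell types HBB, PTPRC, COL1A2 and KRT5 were at 0 in inputs. COL1A1 averaged 20.3 CPM there, HBA1 5.07, HBA2 4.53, EPCAM 1.40 and COL3A1 0.737 CPM, and DCN and ALB were at most 0.113 CPM in any input; their part in the results was not tested. The 9 writer genes together took 0.0885 to 0.180% of counts in the other RIP libraries and 0.0605 to 0.0821% in the 6 that stood apart, against 0.0598 to 0.0704% in inputs. The labels do not say whether replicates are separate cultures, and every p-value below rests on the spread among these libraries alone, which may be technical.

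In input RNA the writer messages were of middle to high abundance, and the RNA-binding adaptors were the highest of them. Levels between genes are given per length, as reads per kilobase of exon per M counts (RPKM, with library scaling), with the mean and SD over 9 inputs. RBM15 averaged 25.8 ± 2.74 RPKM and RBM15B 20.5 ± 1.76 RPKM, which placed them above 93.0% and 90.95% of the 31849 tested genes. WTAP averaged 16.9 ± 2.72 RPKM, METTL3 12.7 ± 0.949 RPKM, METTL16 10.6 ± 1.42 RPKM and ZC3H13 9.45 ± 1.86 RPKM. The lowest were CBLL1 at 5.93 ± 1.12 RPKM, VIRMA at 5.75 ± 0.607 RPKM and METTL14 at 4.24 ± 0.437 RPKM. The range over inputs of each gene overlapped that of its neighbour in this order. Within libraries the order was firmer: RBM15 exceeded RBM15B, METTL3 exceeded METTL16, and VIRMA exceeded METTL14 in 9 of 9 inputs, while CBLL1 exceeded VIRMA in 5 of 9. METTL14 thus stood at 4.24 RPKM, below its catalytic partner METTL3 at 12.7 RPKM. Counts behind these values ranged over 434 to 972 per input for CBLL1, which had the fewest, and 2614 to 4578 for RBM15B.

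**Figure D1:**
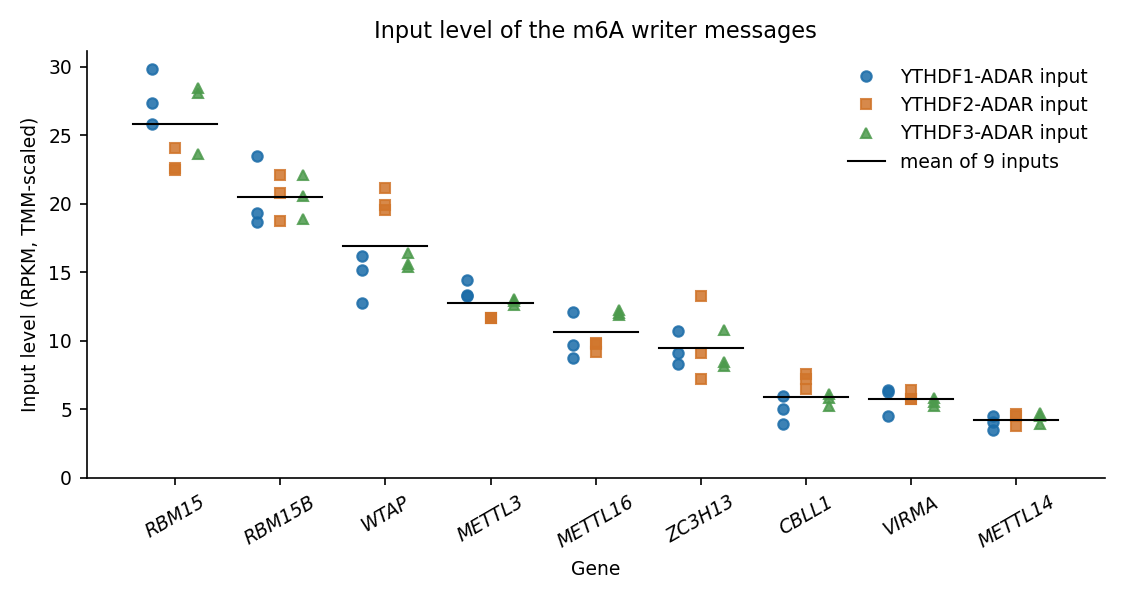
Input level of each writer gene (vertical axis, RPKM with TMM scaling) in the 9 input libraries, with symbols for the 3 lines and a horizontal line at the mean of 9. RBM15 is highest at a mean of 25.8 RPKM and METTL14 lowest at 4.24 RPKM; WTAP and CBLL1 sit highest in YTHDF2-ADAR inputs.

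Between inputs of the 3 lines, edgeR called 2 writers in 1 of 3 comparisons. WTAP had 81.7, 104 and 97.4 CPM in YTHDF1-ADAR inputs, against 126, 128 and 136 CPM in YTHDF2-ADAR inputs, with no overlap (log2 fold change -0.46 ± 0.13 SE, edgeR quasi-likelihood adjusted p = 0.0114). CBLL1 had 20.5, 31.3 and 26.2 CPM, against 33.9, 37.5 and 39.8 CPM in the same groups, again with no overlap (-0.51 ± 0.17, edgeR adjusted p = 0.0298). These were 2 of 9 writer genes, each lower, against 17.6% of all tested genes (13.3% higher and 4.3% lower). Without YTHDF1-ADAR input replicate 1, the input nearest to the libraries that stood apart, neither kept its call (adjusted p = 0.154 for WTAP and 0.290 for CBLL1), and that of CBLL1 was also lost without YTHDF2-ADAR input replicate 2 (0.0760) or 3 (0.0986). Here and below, a library is left out with the tested genes and the scaling factors kept; where refitting these as well decides a call, the word refitted is used, since a refit changes the scaling of every library. With a replicate block across lines, fitted on the 9 inputs, RBM15 and METTL3 were called higher in YTHDF1-ADAR than in YTHDF2-ADAR inputs too (0.32 and 0.29, adjusted p = 0.0433 and 0.0496). In bulk RNA, fewer cells that express a gene and less of its RNA per cell cannot be told apart. Between YTHDF1-ADAR and YTHDF3-ADAR inputs edgeR called 0 writers (0 at an unadjusted p under 0.05, 0 by DESeq2), with 16.4% of all genes called (11.3% higher and 5.1% lower). Between YTHDF2-ADAR and YTHDF3-ADAR inputs it called 0 (2 at an unadjusted p under 0.05, 1 by DESeq2), with 3.42% of all genes called (1.27% higher and 2.15% lower).

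The writers' messages were not recovered alike. RBM15, RBM15B, VIRMA and METTL16 were called higher in RIP than in input in 4 or 5 of the 6 YTHDF2 and YTHDF3 comparisons, METTL14 was called higher in the 3 YTHDF3 comparisons, and METTL3 was called higher in none of the 9 comparisons. Where 3 values are given for the lines, they stand in the order YTHDF1-ADAR, YTHDF2-ADAR, YTHDF3-ADAR. With YTHDF1 the calls differed by line, and outside YTHDF1-ADAR cells they rest on the 6 libraries that stood apart; the part of their snoRNA, mitochondrial mRNA and depth in the calls was not tested. The edgeR fit called 7 of 9 writers in YTHDF1-ADAR cells, 6 higher and 1 lower (of all genes 49.5% were called, 20.6% higher and 28.8% lower). It called 6 in YTHDF2-ADAR cells, 1 higher and 5 lower (75.2% of all genes, 41.8% higher and 33.4% lower). It called 6 in YTHDF3-ADAR cells, 0 higher and 6 lower (73.2% of all genes, 40.8% higher and 32.4% lower). DESeq2 called RBM15 and ZC3H13 higher in that comparison (0.43 and 0.68, adjusted p = 0.000162 and 0.0311).

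With YTHDF2 RIP, 5 writers were called in YTHDF1-ADAR cells, 4 higher and 1 lower (24.1% of all genes, 8.66% higher and 15.4% lower). In YTHDF2-ADAR cells 4 were called, 3 higher and 1 lower (20.3% of all genes, 10.2% higher and 10.1% lower), and in YTHDF3-ADAR cells 3 were called, each higher (18.9% of all genes, 8.98% higher and 9.93% lower). With YTHDF3 RIP, 4 were called in YTHDF1-ADAR cells, each higher (31.5% of all genes, 11.5% higher and 20.1% lower). In YTHDF2-ADAR cells 5 were called, 4 higher and 1 lower (32.0% of all genes, 15.2% higher and 16.9% lower), and in YTHDF3-ADAR cells 4, 3 higher and 1 lower (29.6% of all genes, 13.5% higher and 16.1% lower). In the fit of all 36 libraries, the share of writers called higher thus lay above that of all genes in each of these 6 comparisons. With 1 library left out, kept or refitted, as few as 1 of 9 writers was called in some of them. These were YTHDF2 RIP of YTHDF3-ADAR cells and YTHDF3 RIP of YTHDF1-ADAR and YTHDF2-ADAR cells. Protein-coding genes took 82.8 to 92.4% of counts in the RIP libraries that did not stand apart, against 71.5 to 79.1% in inputs. The writers were set against all tested genes, and not against protein-coding genes or genes of like level alone. By input level per length, each writer lay above 65.2 to 93.0% of tested genes.

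As medians over the 9 writers, the log2 fold change of YTHDF2 RIP over input was 0.57, 0.31 and 0.33 in the 3 lines, where the median of all genes was -0.11, 0.02 and 0.00. For YTHDF3 RIP the writers' medians were 0.42, 0.39 and 0.42, with all genes at -0.23, 0.09 and 0.01. For YTHDF1 RIP they were 0.42, -0.45 and -0.51, with all genes at -0.28, 0.20 and 0.21. All 3 RIPs of a line are set against the same 3 inputs. In YTHDF1-ADAR cells the medians of all genes moved when 1 library was left out. With scaling kept, they ranged over -0.37 to 0.00 for YTHDF1, -0.24 to 0.07 for YTHDF2 and -0.31 to 0.02 for YTHDF3. The writers' medians in those fits are not given.

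**Figure D2:**
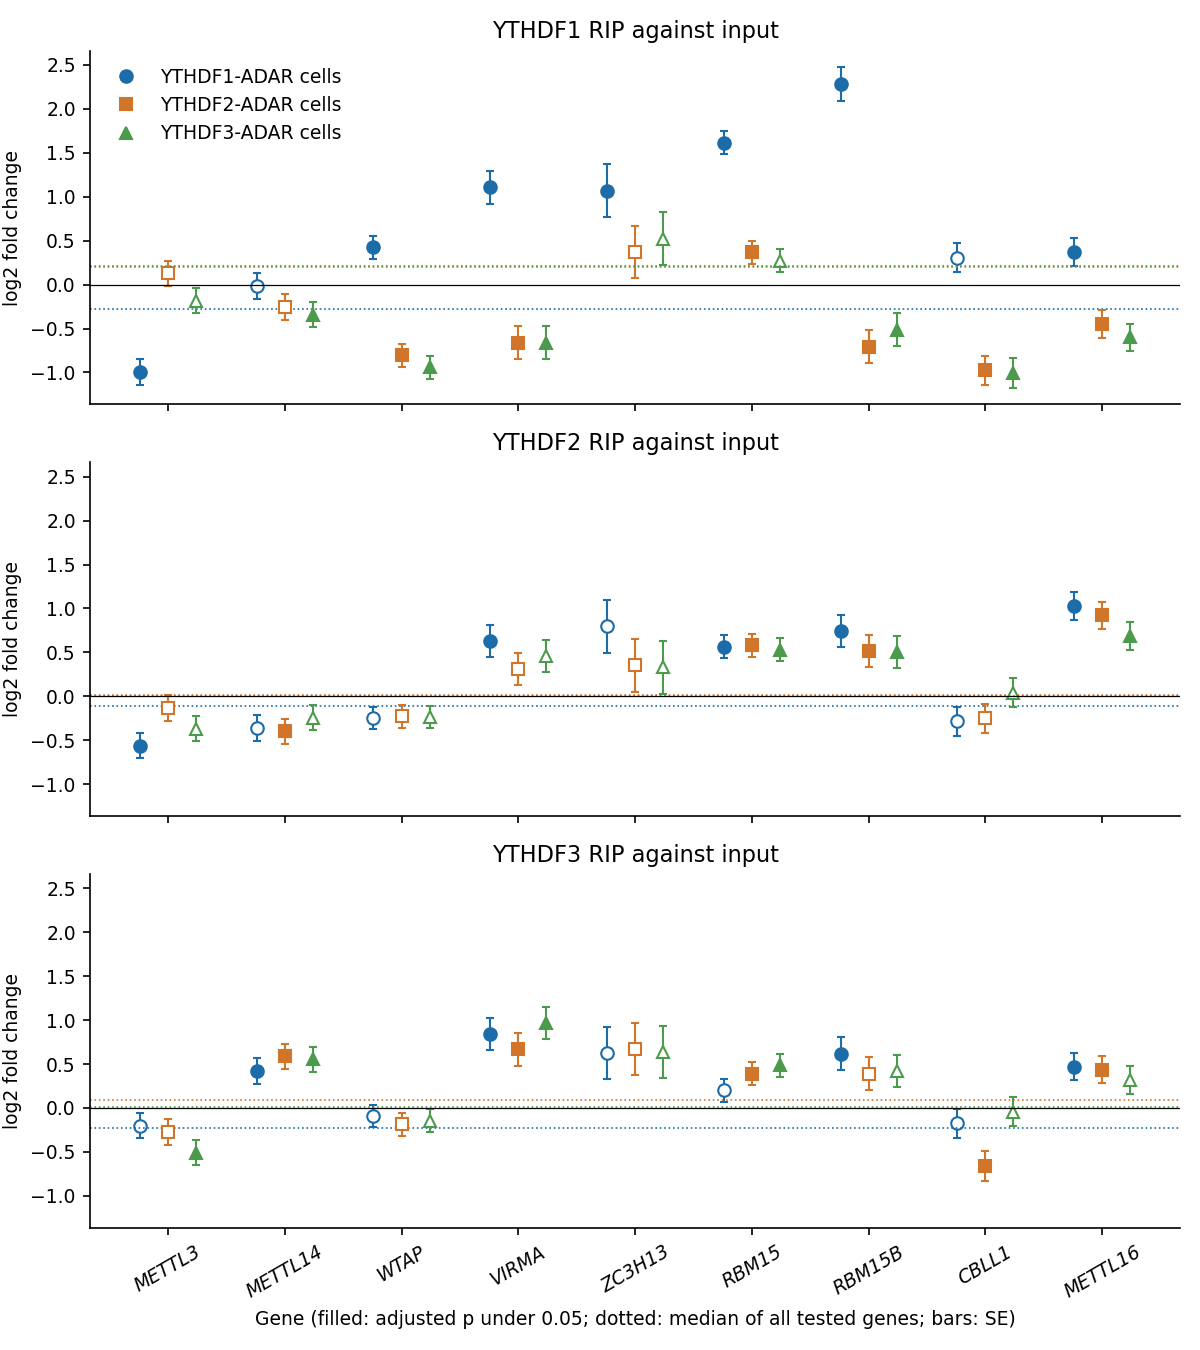
Log2 fold change of RIP over input (vertical axis, with SE bars) for each writer gene in the 3 lines, 1 panel for each antibody. Filled symbols passed an adjusted p of 0.05 and dotted lines mark the median of all tested genes in each line; the lines lie close together for YTHDF2 and YTHDF3 and far apart for YTHDF1, with RBM15B at 2.29 in YTHDF1-ADAR cells.

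The catalytic pair behaved unalike. METTL3 was called higher in no comparison and lower in 3 of 9, with log2 fold changes over input from -0.99 to 0.13. Of the alternatives, total counts and a fit of only the groups compared called METTL3 higher in YTHDF1 RIP of YTHDF2-ADAR cells (0.65 and 0.20, adjusted p = 6.88e-05 and 0.0337). In YTHDF1-ADAR cells, METTL3 had 36.8, 34.8 and 49.2 CPM in YTHDF1 RIP, 64.0, 58.5 and 40.3 CPM in YTHDF2 RIP and 69.7, 68.5 and 71.3 CPM in YTHDF3 RIP, against 78.2, 84.8 and 77.7 CPM in input. Every RIP library of that line lay below every input, and YTHDF1 RIP was the lowest by its mean. The difference was -0.99 ± 0.15 for YTHDF1 RIP (edgeR adjusted p = 4.26e-07), -0.56 ± 0.14 for YTHDF2 RIP (0.00327) and -0.20 ± 0.14 for YTHDF3 RIP (0.323). The YTHDF2 call held when any 1 library was left out and was lost when the scaling was refitted without YTHDF2 RIP replicate 3, input replicate 2 or input replicate 3 (adjusted p = 0.0588 to 0.168). That call was also lost without the filter (-0.44, edgeR adjusted p = 0.0786) and in a fit of only the groups compared (-0.49, 0.123). Leaving out input replicate 1 and YTHDF2 RIP replicate 3 together ended it too (-0.41, edgeR adjusted p = 0.0555).

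In YTHDF2-ADAR cells METTL3 had 76.1, 74.3 and 73.9 CPM in YTHDF1 RIP, 56.2, 62.0 and 68.8 CPM in YTHDF2 RIP and 50.5, 57.4 and 62.1 CPM in YTHDF3 RIP, against 68.4, 68.5 and 68.2 CPM in input, and none of the 3 differences was called. YTHDF1 RIP lay above those inputs, YTHDF3 RIP below them and YTHDF2 RIP overlapped them. In YTHDF3-ADAR cells it had 72.5, 66.4 and 60.4 CPM in YTHDF1 RIP, 55.5, 56.6 and 63.1 CPM in YTHDF2 RIP and 59.4, 57.5 and 42.3 CPM in YTHDF3 RIP, against 76.6, 75.5 and 74.0 CPM in input. RIP libraries of YTHDF3-ADAR cells again all lay below the inputs. Of these METTL3 differences edgeR called YTHDF3 RIP (-0.51 ± 0.14, adjusted p = 0.00628), a call lost without YTHDF3 RIP replicate 3 (0.0720) and by total counts (0.130). METTL3 in YTHDF2 RIP of these cells was called lower by DESeq2 (-0.38, adjusted p = 0.0248), under its size factors (0.0492) and in a fit of only the groups compared (0.0157).

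METTL14 rose with YTHDF3, and its values with YTHDF2 were below input. In YTHDF1-ADAR cells METTL14 had 37.0, 35.7 and 37.2 CPM in YTHDF3 RIP and 20.7, 24.7 and 18.5 CPM in YTHDF2 RIP, against 23.7, 30.6 and 27.7 CPM in input. In YTHDF2-ADAR cells it had 45.8, 42.2 and 45.3 CPM in YTHDF3 RIP and 22.9, 20.9 and 23.6 CPM in YTHDF2 RIP, against 30.9, 26.0 and 31.9 CPM in input. In YTHDF3-ADAR cells it had 39.7, 41.4 and 51.1 CPM in YTHDF3 RIP and 26.3, 24.9 and 25.0 CPM in YTHDF2 RIP, against 30.6, 27.1 and 32.4 CPM in input. In each line every YTHDF3 RIP library exceeded every input. YTHDF2 RIP lay below every input in YTHDF2-ADAR and YTHDF3-ADAR cells and overlapped the inputs in YTHDF1-ADAR cells.

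The edgeR log2 fold change of METTL14 in YTHDF3 RIP over input was 0.42 ± 0.14 in YTHDF1-ADAR cells (adjusted p = 0.0224), 0.59 ± 0.14 in YTHDF2-ADAR cells (0.00147) and 0.55 ± 0.14 in YTHDF3-ADAR cells (0.00271). METTL14 lost the call in YTHDF1-ADAR cells without YTHDF3 RIP replicate 1 (adjusted p = 0.0552) or 3 (0.0536) or input replicate 1 (0.123). The other pair held when any 1 library was left out; with refitted scaling METTL14 was not called without YTHDF2-ADAR input replicate 2 (0.0737), YTHDF3-ADAR YTHDF3 RIP replicate 3 (0.0861) or YTHDF3-ADAR input replicate 2 (0.0791). Set directly against each other, YTHDF2 RIP was below YTHDF3 RIP, with METTL14 differences of -0.78 ± 0.15, -0.99 ± 0.15 and -0.80 ± 0.14 in the 3 lines (edgeR adjusted p = 0.000124, 5.08e-06 and 0.000172). METTL14 kept that call in every alternative run, with adjusted p up to 0.0133. It ranked above 6.85%, 9.28% and 10.1% of all tested genes in that contrast, where 19.2%, 20.4% and 14.8% of genes were called. METTL14 was the 1 writer called in all 3 lines there; edgeR called 3 writers (2 higher, 1 lower; 10.7% and 8.51% of all genes), 2 (1 higher, 1 lower; 12.1% and 8.33%) and 1 (0 higher, 1 lower; 9.01% and 5.75%) in the lines.

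Over input, METTL14 was called lower in YTHDF2 RIP of YTHDF2-ADAR cells (-0.40 ± 0.14, edgeR adjusted p = 0.0469), a call lost without any 1 of its libraries but input replicate 2 (0.0658 to 0.166). With YTHDF1 it had 25.4, 21.7 and 34.0 CPM in YTHDF1-ADAR cells (-0.02 ± 0.14, 0.938), 26.5, 23.6 and 24.1 CPM in YTHDF2-ADAR cells (-0.26 ± 0.15, 0.107) and 26.2, 23.9 and 21.0 CPM in YTHDF3-ADAR cells (-0.34 ± 0.15, edgeR adjusted p = 0.0354). The last of these METTL14 calls was lost without YTHDF1 RIP replicate 2 or 3 or input replicate 1 or 3 (0.0655 to 0.153), by total counts (0.00, adjusted p = 0.981) and by DESeq2 (0.246).

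Within a library, the ratio of METTL14 to METTL3 counts does not depend on library scaling. It averaged 0.524 ± 0.00544 in YTHDF3 RIP, 0.401 ± 0.0699 in YTHDF2 RIP and 0.668 ± 0.0395 in YTHDF1 RIP of YTHDF1-ADAR cells, against 0.340 ± 0.0324 in input (SD, n = 3). In YTHDF2-ADAR cells the ratio was 0.791 ± 0.101 in YTHDF3 RIP, 0.362 in YTHDF2 RIP and 0.331 in YTHDF1 RIP, against 0.433 ± 0.0471 in input. YTHDF3-ADAR cells gave 0.867 ± 0.298 in YTHDF3 RIP, 0.436 in YTHDF2 RIP and 0.356 in YTHDF1 RIP, against 0.399 ± 0.0398 in input. The 3 YTHDF3 RIP groups thus lay above their inputs, with the lowest YTHDF3 RIP library at 0.521 and the highest input at 0.467.

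METTL16 had its highest values with YTHDF2. In YTHDF1-ADAR cells it had 118, 101 and 133 CPM in YTHDF1 RIP, 209, 194 and 154 CPM in YTHDF2 RIP and 145, 134 and 99.5 CPM in YTHDF3 RIP, against 78.1, 108 and 86.7 CPM in input. In YTHDF2-ADAR cells METTL16 had 59.9, 61.6 and 66.8 CPM in YTHDF1 RIP, 168, 154 and 165 CPM in YTHDF2 RIP and 119, 119 and 111 CPM in YTHDF3 RIP, against 87.8, 87.0 and 82.3 CPM in input. In YTHDF3-ADAR cells it had 70.2, 75.8 and 66.8 CPM in YTHDF1 RIP, 134, 178 and 207 CPM in YTHDF2 RIP and 151, 144 and 108 CPM in YTHDF3 RIP, against 106, 109 and 107 CPM in input. Every YTHDF2 RIP library exceeded every input of its line. YTHDF1 RIP lay below every input in YTHDF2-ADAR and YTHDF3-ADAR cells, where its libraries stood apart.

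For METTL16, YTHDF2 RIP over input gave log2 fold changes of 1.03 ± 0.16, 0.92 ± 0.16 and 0.68 ± 0.16 in the 3 lines (edgeR adjusted p = 4.93e-06, 4.40e-05 and 0.00160). The first pair kept their call in every alternative run, and the third lost it when the scaling was refitted without YTHDF2 RIP replicate 3 (adjusted p = 0.0813). METTL16 stood above 96.1%, 91.2% and 88.3% of all tested genes there, higher than any other writer in each line. YTHDF3 RIP over input gave 0.47 ± 0.16, 0.44 ± 0.16 and 0.32 ± 0.16 (edgeR adjusted p = 0.0185, 0.0297 and 0.131). Of these calls, METTL16 lost that in YTHDF1-ADAR cells without YTHDF3 RIP replicate 1 (0.126) or 2 (0.0687) or input replicate 1 (0.105) or 3 (0.0654), and that in YTHDF2-ADAR cells without any 1 of its 6 libraries but YTHDF3 RIP replicate 3 (0.0594 to 0.0883). In the direct comparison, YTHDF2 RIP exceeded YTHDF3 RIP by 0.56 ± 0.16 in YTHDF1-ADAR cells and 0.49 ± 0.16 in YTHDF2-ADAR cells (edgeR adjusted p = 0.00917 and 0.0232), while YTHDF3-ADAR cells gave 0.37 ± 0.16 (0.117). The METTL16 call in YTHDF1-ADAR cells was lost without YTHDF2 RIP replicate 1 (0.0670) or YTHDF3 RIP replicate 3 (0.0992), and that in YTHDF2-ADAR cells without replicate 1 or 3 of either RIP (0.0534 to 0.0846).

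With YTHDF1, METTL16 had log2 fold changes over input of 0.37 ± 0.16 in YTHDF1-ADAR cells, -0.45 ± 0.16 in YTHDF2-ADAR cells and -0.60 ± 0.16 in YTHDF3-ADAR cells (edgeR adjusted p = 0.0469, 0.0109 and 0.00104). The first METTL16 call was lost without YTHDF1 RIP replicate 1 (0.0897) or 3 (0.185) or input replicate 1 (0.198) or 3 (0.119), and with the 6 libraries that stood apart out of the fit (0.0676). Scaled by total counts alone, the second turned to 0.0760 and the third to -0.27 (adjusted p = 0.628 and 0.0811), and by DESeq2 the second was not called (0.0816). The ratio of METTL16 to METTL14 counts, which needs no scaling, averaged 8.75 ± 1.18, 7.24 ± 0.211 and 6.85 ± 1.63 in YTHDF2 RIP and 3.45, 2.61 and 3.13 in YTHDF3 RIP of the 3 lines, against 3.32 ± 0.202, 2.93 ± 0.392 and 3.61 ± 0.380 in input (SD, n = 3 each). METTL14 was itself lower in YTHDF2 than in YTHDF3 RIP, which widens this contrast. The ratio of METTL16 to METTL3 counts averaged 3.46, 2.62 and 2.95 in YTHDF2 RIP of the 3 lines. It averaged 1.81, 2.07 and 2.53 in YTHDF3 RIP, against 1.13, 1.25 and 1.43 in input. METTL3 itself had log2 fold changes of -0.56 to -0.13 over input in these RIPs. MAT2A, the message METTL16 methylates, was 2.04 ± 0.21 higher in YTHDF1 RIP than in input of YTHDF1-ADAR cells (edgeR adjusted p = 2.78e-10). Its YTHDF1 RIP values in the other lines were 0.82 ± 0.20 and 0.52 ± 0.20 (adjusted p = 0.000549 and 0.0214), and its YTHDF2 RIP values 0.56, 0.69 and 0.51 (0.0393, 0.0122 and 0.0757). The difference between MAT2A and METTL16 was not tested.

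**Figure D3:**
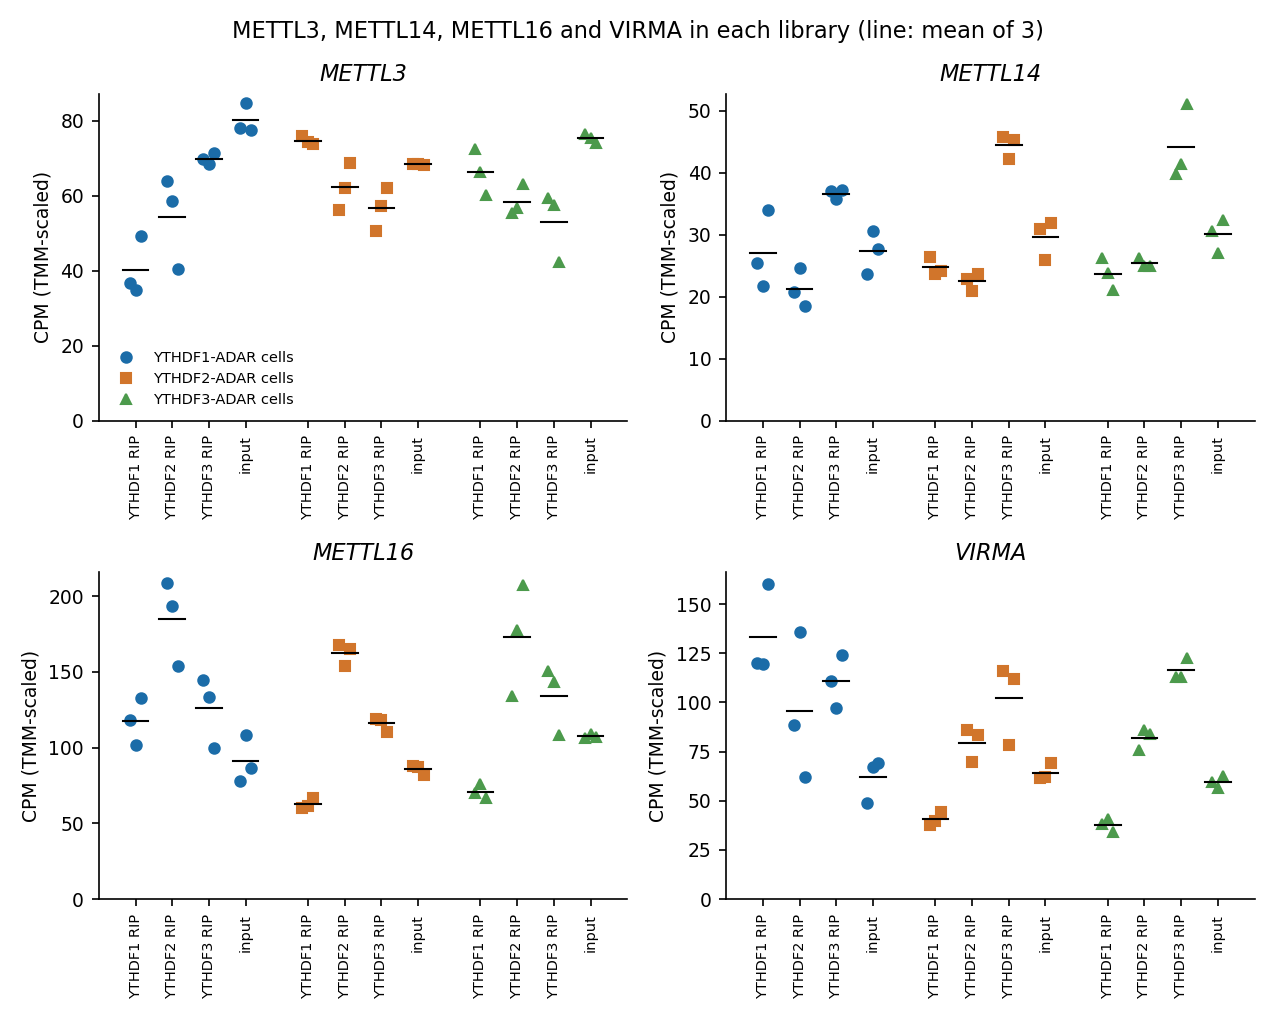
CPM (vertical axis, TMM-scaled) of METTL3, METTL14, METTL16 and the scaffold VIRMA in each of the 36 libraries, with RIP groups left of the input of each line and a horizontal line at the mean of 3. METTL14 is highest in YTHDF3 RIP of each line (35.7 to 51.1 CPM), METTL16 in YTHDF2 RIP (134 to 209 CPM), and METTL3 stays at or below 84.8 CPM.

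Among the regulatory subunits, VIRMA was the one that edgeR called higher with YTHDF3 in every line. In YTHDF1-ADAR cells VIRMA had 120.0, 119 and 160.1 CPM in YTHDF1 RIP, 88.6, 136 and 61.9 CPM in YTHDF2 RIP and 111, 97.1 and 124 CPM in YTHDF3 RIP, against 48.9, 67.2 and 69.4 CPM in input. In YTHDF2-ADAR cells it had 37.9, 40.0 and 44.4 CPM in YTHDF1 RIP, 85.8, 69.5 and 83.4 CPM in YTHDF2 RIP and 116, 78.5 and 112 CPM in YTHDF3 RIP, against 61.8, 62.2 and 69.2 CPM in input. In YTHDF3-ADAR cells VIRMA had 38.3, 40.5 and 34.0 CPM in YTHDF1 RIP, 75.7, 86.2 and 83.9 CPM in YTHDF2 RIP and 113, 113 and 123 CPM in YTHDF3 RIP, against 59.5, 56.4 and 62.7 CPM in input. YTHDF3 RIP exceeded every input in each line, and YTHDF2 RIP overlapped the inputs in YTHDF1-ADAR cells alone.

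YTHDF3 RIP over input gave VIRMA log2 fold changes of 0.84 ± 0.18, 0.67 ± 0.18 and 0.97 ± 0.18 in the 3 lines (edgeR adjusted p = 0.000409, 0.00433 and 7.72e-05). The second lost its call when the scaling was refitted without YTHDF3 RIP replicate 1 or 3 or input replicate 1 or 2 (0.0614 to 0.103). With YTHDF2 the values were 0.63 ± 0.18, 0.31 ± 0.18 and 0.46 ± 0.18 (edgeR adjusted p = 0.00953, 0.265 and 0.0750), and the first of these VIRMA calls was lost without YTHDF2 RIP replicate 2 (0.28, adjusted p = 0.287) or input replicate 1 (0.0671). With YTHDF1, VIRMA had log2 fold changes of 1.11 ± 0.18, -0.66 ± 0.18 and -0.66 ± 0.19 over the lines (edgeR adjusted p = 3.86e-06, 0.00185 and 0.00193). The YTHDF2 values of VIRMA in YTHDF2-ADAR and YTHDF3-ADAR cells were called by total counts (0.50 and 0.66, adjusted p = 0.0201 and 0.00243) and in fits of only the groups compared (0.0411 and 0.00718). By total counts the last pair of YTHDF1 differences was not called (-0.14 and -0.32, adjusted p = 0.448 and 0.0748).

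WTAP, the anchor of the regulatory group, was not called by edgeR in any YTHDF2 or YTHDF3 comparison (log2 fold changes -0.25 to -0.09), except in YTHDF2 RIP of YTHDF2-ADAR cells when only the groups compared were fitted (-0.25, adjusted p = 0.0335), although its YTHDF2 and YTHDF3 RIP libraries all lay below the inputs of the YTHDF2-ADAR line and of the YTHDF3-ADAR line. With YTHDF1 it had 123, 107 and 149 CPM in RIP, against 81.7, 104 and 97.4 CPM in input of YTHDF1-ADAR cells (0.42 ± 0.13, edgeR adjusted p = 0.00537). That WTAP call was lost without YTHDF1 RIP replicate 3 (0.0642), without the filter (0.0726) and in a fit of only the groups compared (0.0558). In YTHDF2-ADAR cells it had 77.9, 70.4 and 74.2 CPM in YTHDF1 RIP, against 126, 128 and 136 CPM in input, and in YTHDF3-ADAR cells 59.6, 51.5 and 47.1 CPM, against 100.3, 98.7 and 105 CPM. Here the groups did not overlap in any line, but the direction differed: the log2 fold changes of WTAP were -0.81 ± 0.13 and -0.94 ± 0.13 in these lines (edgeR adjusted p = 1.23e-06 and 9.61e-08).

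CBLL1, a RING-type E3 ubiquitin ligase, had 32.7, 32.9 and 30.9 CPM in YTHDF1 RIP of YTHDF1-ADAR cells, against 20.5, 31.3 and 26.2 CPM in input, which overlapped (0.31 ± 0.17, edgeR adjusted p = 0.128; called by DESeq2, 0.45, adjusted p = 0.0199). In YTHDF2-ADAR cells CBLL1 had 19.2, 18.2 and 19.1 CPM in YTHDF1 RIP, against 33.9, 37.5 and 39.8 CPM in input (-0.98 ± 0.17, adjusted p = 5.01e-06), and in YTHDF3-ADAR cells 13.6, 15.4 and 15.7 CPM, against 30.6, 27.4 and 32.0 CPM (-1.01 ± 0.17, 3.79e-06). Of the YTHDF2 and YTHDF3 comparisons, edgeR called CBLL1 in 1: it had 25.6, 16.2 and 28.7 CPM in YTHDF3 RIP of YTHDF2-ADAR cells, against the same inputs (-0.66 ± 0.17, adjusted p = 0.00191). The lowest library, replicate 2, lay well below the other two, and by total counts that CBLL1 difference was not called (0.0532).

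ZC3H13, a zinc-finger subunit that helps to keep the complex in the nucleus, had the largest SE of the 9 genes. In YTHDF1-ADAR cells it had 126, 150.2 and 328 CPM in YTHDF1 RIP and 164, 261 and 75.2 CPM in YTHDF2 RIP, against 85.1, 110.1 and 93.2 CPM in input. YTHDF1 RIP there gave 1.07 ± 0.30 (edgeR adjusted p = 0.00358), which rested on replicate 3: without it the value for ZC3H13 was 0.52 (adjusted p = 0.121). In YTHDF3 RIP it had 143, 145 and 157 CPM in YTHDF1-ADAR cells, 170.4, 146 and 166 CPM in YTHDF2-ADAR cells and 132, 152 and 154 CPM in YTHDF3-ADAR cells, against 73.7 to 137 CPM over the 9 inputs. Each YTHDF3 RIP library of ZC3H13 exceeded the inputs of its line, with log2 fold changes of 0.62, 0.67 and 0.64 that were not called at an SE of 0.30 (edgeR adjusted p = 0.116, 0.0881 and 0.113). By total counts all 3 were called (0.92, 0.93 and 0.88, adjusted p = 0.00836, 0.00724 and 0.0124), and DESeq2 called the first pair (0.0406 and 0.0477). In YTHDF1 RIP ZC3H13 had 118, 139 and 135 CPM in YTHDF2-ADAR cells and 97.3, 173 and 134 CPM in YTHDF3-ADAR cells, which overlapped the inputs (0.37 ± 0.30 and 0.52 ± 0.30, edgeR adjusted p = 0.259 and 0.114). Its YTHDF2 RIP values were 0.80 ± 0.30, 0.35 ± 0.30 and 0.33 ± 0.30 (0.0514, 0.467 and 0.512), each overlapping the inputs; without YTHDF2 RIP replicate 3 the first was called (1.14, adjusted p = 0.00150). That first ZC3H13 value was also called by DESeq2 (0.89, adjusted p = 0.00919), under its size factors (0.0232), by total counts (0.00876) and without the filter (1.76e-05).

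The adaptors RBM15 and RBM15B gave the largest values of the 9 genes. In YTHDF1 RIP of YTHDF1-ADAR cells RBM15B had 730.1, 663 and 596 CPM, against 124, 156 and 128 CPM in input. RBM15 had 399, 361 and 428 CPM there, against 128, 139 and 120.5 CPM in input. The groups lay far apart. The log2 fold change was 2.29 ± 0.19 for RBM15B (edgeR adjusted p = 3.66e-12), above 98.7% of all tested genes, and 1.62 ± 0.13 for RBM15 (2.73e-12), above 93.97%. Both calls held in every alternative run.

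The same antibody in YTHDF2-ADAR cells gave RBM15B 74.7, 79.1 and 96.4 CPM, against 138, 146 and 124 CPM in input, and in YTHDF3-ADAR cells 97.0, 105 and 83.5 CPM, against 136, 146 and 125 CPM. RBM15 had 138, 138 and 139 CPM in YTHDF1 RIP of YTHDF2-ADAR cells, against 105, 113 and 105 CPM in input, and 161, 147 and 144 CPM in YTHDF3-ADAR cells, against 131, 133 and 110.4 CPM. In both lines, then, RBM15B lay below the inputs and RBM15 above them. RBM15B had -0.71 ± 0.18 and -0.51 ± 0.18 (edgeR adjusted p = 0.000958 and 0.0133), and RBM15 0.37 ± 0.13 and 0.27 ± 0.13 (0.0124 and 0.0601). The RBM15 call held when any 1 library was left out, but not when the scaling was refitted without it: in 5 of 6 such fits RBM15 stood at 0.02 to 0.09 (adjusted p = 0.643 to 0.934), and the median of all genes at -0.13 to -0.10 in place of 0.20. RBM15 thus moved with the median of all genes in these fits. The second RBM15B call was lost without YTHDF1 RIP replicate 3 (0.0690), and both were lost by total counts (-0.18 and -0.17, adjusted p = 0.334 and 0.349). The ratio of RBM15B to RBM15 counts, which needs no scaling, averaged 1.69 ± 0.254 in YTHDF1 RIP of YTHDF1-ADAR cells, against 1.05 ± 0.0764 in input (SD, n = 3). It averaged 0.601 ± 0.0795 in YTHDF2-ADAR cells, against 1.26 ± 0.0714 in input, and 0.632 ± 0.0724 in YTHDF3-ADAR cells, against 1.09 ± 0.0465 in input.

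With YTHDF2 both adaptors were called higher in each line. RBM15 had 205, 208 and 160.4 CPM in YTHDF2 RIP of YTHDF1-ADAR cells, 168, 152 and 163 CPM in YTHDF2-ADAR cells and 189.6, 173 and 178 CPM in YTHDF3-ADAR cells, above every input of the same line. Its log2 fold changes over input were 0.57 ± 0.13, 0.58 ± 0.13 and 0.53 ± 0.13 (edgeR adjusted p = 0.00110, 0.00116 and 0.00325), the last lost when the scaling was refitted without YTHDF3-ADAR input replicate 3 (0.110). RBM15B had 252, 286 and 144 CPM in YTHDF1-ADAR cells, 224, 188 and 173 CPM in YTHDF2-ADAR cells and 161, 199 and 219 CPM in YTHDF3-ADAR cells, overlapping the inputs in the YTHDF1-ADAR line alone. Its values were 0.74 ± 0.18, 0.52 ± 0.18 and 0.51 ± 0.18 (edgeR adjusted p = 0.00222, 0.0406 and 0.0488). The last pair of RBM15B calls sat near the threshold and were easily lost. In YTHDF2-ADAR cells this took leaving out YTHDF2 RIP replicate 1 or 2 or any input (0.0567 to 0.204), and in YTHDF3-ADAR cells YTHDF2 RIP replicate 2 or 3 or any input (0.0649 to 0.205).

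With YTHDF3, RBM15 had 163, 161 and 122 CPM in YTHDF1-ADAR cells, which overlapped the inputs, 146, 133 and 144 CPM in YTHDF2-ADAR cells and 156, 199.6 and 168 CPM in YTHDF3-ADAR cells, both above them. The log2 fold changes were 0.20 ± 0.13, 0.39 ± 0.13 and 0.48 ± 0.13 (edgeR adjusted p = 0.265, 0.0194 and 0.00396); DESeq2 called the first too (0.0164). The RBM15 call in YTHDF2-ADAR cells was lost without YTHDF3 RIP replicate 1 or 3 or input replicate 1 or 3 (0.0539 to 0.0651), and that in YTHDF3-ADAR cells when the scaling was refitted without YTHDF3 RIP replicate 2 (0.165) or input replicate 3 (0.114). RBM15B had 244, 226 and 155 CPM, 187, 176 and 173 CPM, and 206, 177 and 163 CPM in YTHDF3 RIP of the 3 lines, which overlapped the inputs in the first. It gave 0.62 ± 0.18, 0.39 ± 0.18 and 0.42 ± 0.18 (edgeR adjusted p = 0.00812, 0.104 and 0.0820), and the first RBM15B call was lost without YTHDF3 RIP replicate 1 (0.0679). Total counts and a fit of only the groups compared called the other pair (adjusted p = 0.00130 to 0.0154), and DESeq2 called the third (0.47, adjusted p = 0.0312).

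**Figure D4:**
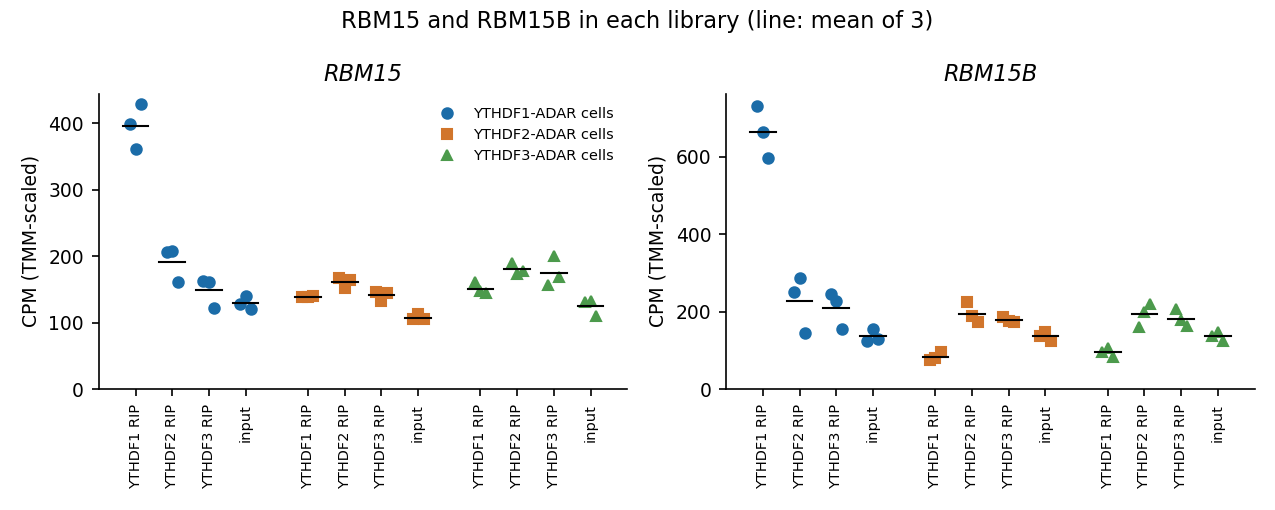
CPM (vertical axis, TMM-scaled) of RBM15 and RBM15B in each of the 36 libraries, with RIP groups left of the input of each line and a horizontal line at the mean of 3. The YTHDF1 RIP libraries of YTHDF1-ADAR cells stand above the rest, at 361 to 428 CPM for RBM15 and 596 to 730.1 CPM for RBM15B.

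The 3 antibodies were also set against each other in YTHDF1-ADAR cells, where the YTHDF1 RIP libraries did not stand apart. Against YTHDF2 RIP, edgeR called 5 writers higher and 2 lower in YTHDF1 RIP (39.1% of all genes called, 20.3% higher and 18.8% lower). RBM15B was 1.54 ± 0.19 higher (adjusted p = 2.01e-08), RBM15 1.05 ± 0.13 higher (3.91e-08) and WTAP 0.67 ± 0.13 higher (4.35e-05), while METTL16 was lower (-0.66 ± 0.16, 0.000815). CBLL1 (0.59 ± 0.17, edgeR adjusted p = 0.00410) lost its call when the scaling was refitted without YTHDF2 RIP replicate 3 (0.0806). VIRMA (0.48 ± 0.18, 0.0341) lost it without YTHDF1 RIP replicate 3 (0.193) or YTHDF2 RIP replicate 1 (0.108) or 3 (0.25, adjusted p = 0.293). METTL3 (-0.43 ± 0.15, 0.0160) lost it without replicate 1 or 2 of either RIP (0.0659 to 0.142).

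Against YTHDF3 RIP, 4 writers were called higher and 2 lower in YTHDF1 RIP (41.1% of all genes called, 22.4% higher and 18.7% lower). RBM15B was 1.67 ± 0.19 higher (edgeR adjusted p = 3.53e-09), RBM15 1.42 ± 0.13 higher (7.42e-11), and METTL3 was lower (-0.79 ± 0.15, 2.40e-05). WTAP (0.51 ± 0.13, edgeR adjusted p = 0.00112) lost its call when the scaling was refitted without YTHDF1 RIP replicate 3 (0.107), and CBLL1 (0.48 ± 0.17, 0.0180) when it was refitted without any 1 library but YTHDF3 RIP replicate 2 (0.0746 to 0.153). METTL14 (-0.44 ± 0.14, 0.0133) lost its call without YTHDF1 RIP replicate 1 (0.0588) or 2 (0.129). By group means, METTL3 was thus lowest and RBM15 and RBM15B highest in YTHDF1 RIP of these 3 RIPs.

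Between lines, the recovery of 7 of 9 writers was called different for YTHDF1, a share near that of all genes, and that of 0 writers for the other readers. The log2 enrichment of YTHDF1 RIP over input in YTHDF1-ADAR cells, minus its mean in the other lines, was 2.90 ± 0.23 for RBM15B, 1.77 ± 0.23 for VIRMA, 1.30 ± 0.16 for WTAP, 1.30 ± 0.16 for RBM15, 1.30 ± 0.20 for CBLL1, 0.90 ± 0.19 for METTL16 and -0.97 ± 0.18 for METTL3. These 7 of 9 were called by edgeR (adjusted p from 6.48e-13 for RBM15B to 0.000115 for METTL16), against 69.3% of all genes (26.9% higher and 42.4% lower), and kept their call in every alternative run. METTL14 (0.28 ± 0.18) and ZC3H13 (0.62 ± 0.36) were not called. The other lines' YTHDF1 RIPs are the 6 libraries that stood apart in snoRNA, mitochondrial mRNA and olfactory receptor counts, and that had low depth. Line and library character thus cannot be told apart in this contrast. For YTHDF2 RIP in YTHDF2-ADAR cells against the other lines, edgeR called 0 writers (0 at an unadjusted p under 0.05, 0 by DESeq2). Of all genes it called 0.0%, with 822 at an unadjusted p under 0.05. The writers' differences ran from -0.24 (VIRMA) to 0.33 (METTL3). For YTHDF3 RIP in YTHDF3-ADAR cells it also called 0 writers (0 unadjusted, 0 by DESeq2) and 0.0% of genes (834 unadjusted, 1 by DESeq2), with differences from -0.27 (METTL3) to 0.37 (CBLL1).

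The authors' deposited table gives 1 log2 fold change for each reader, and which libraries stand behind it is not stated. In the authors' deposited table RBM15B had 0.92, 0.70 and 0.57, and RBM15 0.75, 0.66 and 0.45, for YTHDF1, YTHDF2 and YTHDF3. METTL16 had -0.38, 0.97 and 0.49 and METTL14 -0.44, -0.24 and 0.60 in the authors' deposited table, and METTL3 was negative throughout at -0.58, -0.26 and -0.23. For YTHDF1, YTHDF2 and YTHDF3 the authors' deposited table has adjusted p of 0.0450, 0.155 and 0.285 for RBM15B, and of 0.00374, 0.0136 and 0.127 for RBM15. METTL16 has 0.0868, 1.58e-07 and 0.0147 in the authors' deposited table, METTL14 0.000130, 0.0606 and 3.45e-08, and METTL3 1.76e-05, 0.0887 and 0.139. ZC3H13 has 0.0642, 0.0136 and 0.00199 in the authors' deposited table, VIRMA 1.0, 0.0815 and 0.00217, WTAP 0.0162, 0.555 and 0.883, and CBLL1 0.00139, 0.694 and 0.491. The authors' log2 fold changes of ZC3H13, VIRMA, WTAP and CBLL1 are not given here, so these adjusted p carry no direction.

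Across the 12 group means, the writers did not share 1 profile. RBM15 and RBM15B had a Pearson r of 0.85 with each other, as did WTAP and CBLL1 (0.85), while the highest r of METTL3 with any other writer was -0.07 (METTL14). Among 12357 other genes of at least moderate level, those most like RBM15B were ZBED1 (r = 0.990) and JADE2 (0.990). METTL14 was nearest to ZNF391 (0.986) and PHACTR4 (0.967), METTL16 to MFN2 (0.980) and MEAK7 (0.979), and ZC3H13 to CLIP1 (0.980) and BPTF (0.978). RBM15 was nearest to EEPD1 (0.970) and TPPP (0.965), CBLL1 to PNRC1 (0.956) and DDX19B (0.945), WTAP to RTL8B (0.952) and ARC (0.949), and METTL3 to METTL17 (0.946) and TMEM165 (0.935). These r describe 12 points that share libraries, scaling and the groups that stood apart.

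Of 22 other genes of the m6A pathway (erasers, readers and other methyltransferase genes), 7 were called higher and 12 lower in YTHDF1 RIP over input in YTHDF1-ADAR cells, 2 higher and 12 lower in YTHDF2-ADAR cells, and 1 higher and 14 lower in YTHDF3-ADAR cells. With YTHDF2 the counts were 5 higher and 6 lower, 3 higher and 2 lower, and 2 higher and 1 lower in the same order of lines. With YTHDF3 they were 7 higher and 6 lower, 6 higher and 3 lower, and 6 higher and 5 lower. Of all genes, 49.5%, 75.2% and 73.2% were called with YTHDF1, 24.1%, 20.3% and 18.9% with YTHDF2, and 31.5%, 32.0% and 29.6% with YTHDF3. The median log2 fold change of these 22 genes with YTHDF2 was -0.17, 0.14 and 0.09, and with YTHDF3 0.03, -0.03 and 0.13, where the 9 writers stood at 0.57, 0.31 and 0.33 and at 0.42, 0.39 and 0.42, and all genes at -0.11, 0.02 and 0.00 and at -0.23, 0.09 and 0.01.

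Editing can give a second readout of contact, since a fused deaminase converts adenosine to inosine near where its reader binds. Cells without a fusion are not analysed here, so the values below do not tell sites made by the fusion from other editing. The authors' deposited editing table lists all 9 writers in YTHDF1-ADAR cells (of 7829 genes), 4 in YTHDF2-ADAR cells (of 2402) and 6 in YTHDF3-ADAR cells (of 2944). In YTHDF1-ADAR cells the authors' deposited table has 205 edited sites in RBM15B, which ranks 22nd of all listed genes, and 91 in RBM15, which ranks 182nd. Among the rest, METTL16 has 26 sites, ZC3H13 25, VIRMA 24 and WTAP 18, against a median of 6 over the listed genes. METTL14 and METTL3 have 5 each and CBLL1 has 2. Per kilobase of exon this is 30.95 sites for RBM15B and 19.5 for RBM15, against 0.383 to 2.91 for the other 7.

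The editing level is given here as the mean percent edited per site, from values that the authors' deposited table holds once per group, so no replicate error can be given and depth is unknown. In the authors' deposited table RBM15B was edited at 5.65% in YTHDF1 RIP, 5.98% in YTHDF2 RIP and 5.82% in YTHDF3 RIP, against 4.83% in input. RBM15 stood at 2.84%, 2.73% and 2.32%, against 1.75% in input, and ZC3H13 at 6.94%, 8.44% and 6.09%, against 6.44%. ZC3H13 thus had the highest input level of the 9, above 88.3% of the listed genes. For METTL16 the authors' deposited table gives 2.60%, 3.002% and 2.92%, against 2.19% in input, and for WTAP 4.93%, 3.90% and 3.80%, against 3.06%. VIRMA had 1.64%, 1.67% and 1.31%, against 1.06%, and METTL14 1.86%, 1.34% and 1.79%, against 1.18%. METTL3, the lowest of the 9 in input, had 1.71%, 1.13% and 0.473%, against 0.577%. CBLL1, with 2 sites, had 4.03%, 0.958% and 6.19%, against 1.01%. In the authors' deposited table YTHDF1 RIP thus exceeded input in 9 of 9 writers, YTHDF2 RIP in 8 and YTHDF3 RIP in 7. Over all listed genes with both values the shares above input were 82.5%, 77.5% and 75.8%, so the writers' counts lie near the background.

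**Figure D5:**
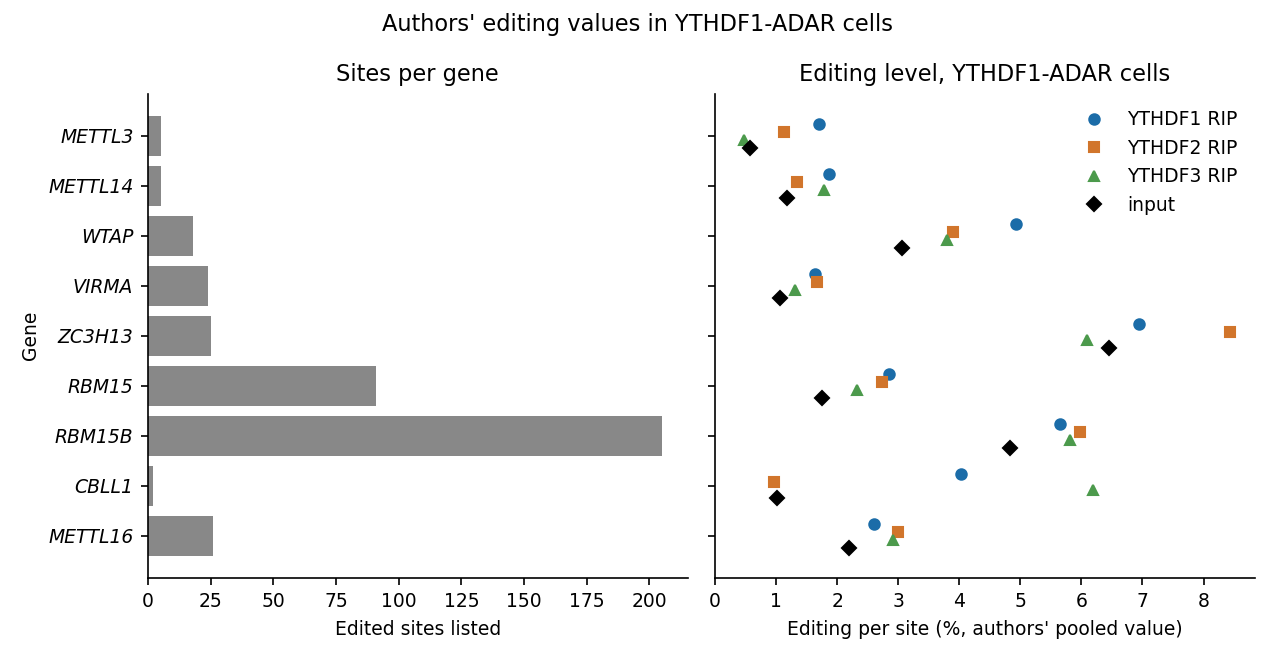
Edited sites per writer gene (left, number of sites) and mean editing per site (right, percent, the authors' pooled values) in YTHDF1-ADAR cells, with symbols for YTHDF1 RIP, YTHDF2 RIP, YTHDF3 RIP and input. RBM15B has 205 sites and RBM15 91, while editing in input is highest for ZC3H13 at 6.44%.

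By the authors' adjusted p, 0 of the 9 writers had a difference in editing between YTHDF1 RIP and input in YTHDF1-ADAR cells, where 8.12% of listed genes did. The smallest such p in the authors' deposited table was 0.112 for METTL3 (natural log odds ratio 1.10), followed by 0.122 for RBM15 (0.49). With YTHDF2 RIP and YTHDF3 RIP the count was also 0 of 9, with 1.63% and 1.12% of listed genes under the threshold. No other tool was run on editing.

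In the other lines the listed sites were few. The authors' deposited table gives 5 sites for METTL16 in YTHDF2-ADAR cells, at 1.66% in YTHDF1 RIP, 1.20% in YTHDF2 RIP and 2.29% in YTHDF3 RIP, against 1.11% in input. ZC3H13 has 3 sites there, RBM15B 2 and VIRMA 1. In YTHDF3-ADAR cells the authors' deposited table gives 4 sites for ZC3H13, at 3.05% in YTHDF1 RIP, 11.6% in YTHDF2 RIP and 12.3% in YTHDF3 RIP, against 8.44% in input. METTL16 and RBM15B have 3 sites each, VIRMA 2, and WTAP and RBM15 1 each. Editing exceeded input in 2, 3 and 4 of 4 listed writers in YTHDF1, YTHDF2 and YTHDF3 RIP of YTHDF2-ADAR cells. Of listed genes with both values, 31.8%, 49.1% and 58.6% did so there. In YTHDF3-ADAR cells it exceeded input in 1, 3 and 2 of 6 writers, against 27.8%, 45.4% and 58.9% of genes. METTL3, METTL14 and CBLL1 are listed in YTHDF1-ADAR cells alone. None of these writers passed the authors' adjusted p in YTHDF2-ADAR cells (2.66%, 0.25% and 1.46% of listed genes with YTHDF1, YTHDF2 and YTHDF3) or in YTHDF3-ADAR cells (2.92%, 0.102% and 1.83%). RBM15B, with 205 sites in the first line, thus had 2 and 3 in the others, while its input level was not called different between lines. Sites were fewer over all listed genes as well, with medians of 6, 1 and 1 and maxima of 617, 184 and 193 in the 3 lines. The number of listed genes differed too, from 7829 to 2402.

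The density of edited sites and the recovery by RIP ran in the same direction over the 9 genes in YTHDF1-ADAR cells, with a Spearman rho of 0.77 between sites per kilobase and the YTHDF1 RIP log2 fold change. Site density had a rho of 0.78 with the input level per length as well. These describe 9 genes whose sites and counts come from the same libraries.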

How the data were processed

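RNA was sequenced from 36 libraries, grouped by the labels' line, antibody and replicate. Per the submitters' processing notes, STAR 2.7.7 (build GRCh38/hg38), featureCounts 2.0.1 and DESeq2 were used. Per the file headers, the deposited counts per gene include multi-mapping and multi-overlapping reads, ignore marked duplicates and are unstranded, so antisense partners share counts. The authors' deposited DESeq2 table holds a mean signal, a log2 fold change and an adjusted p-value per gene; the libraries behind it are not stated. For each listed gene, the deposited editing tables hold how many sites were edited, 1 score per arm, and the natural log odds ratio of RIP to input with its p-value; replicates are pooled. From the values, 100 times the deposited score over the number of sites is the percent edited per site, and the deposited natural log odds ratio matched that of these percents within 1e-06 for every writer with a value above 0.

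Counts were tested with edgeR 4.0.16 (R 4.3.3): TMM scaling, filterByExpr, a quasi-likelihood fit of 12 group means over 36 libraries, and Benjamini-Hochberg adjustment over 31849 tested genes of 60675, with calls at an adjusted p of 0.05. All 9 writers and the 22 other pathway genes passed the filter. Differences are ± SE, levels ± SD. Exon lengths come from the count table. All groups shared 1 spread estimate. The 36 libraries hold 12.5 to 37.5 M (mega) counts, and 434 or more counts lie behind each writer's input value. The scripts were checked on simulated data.

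Alternatives were DESeq2 1.42.0 (its size factors, and its Wald test), total counts, no filter, a replicate block, a fit of only the groups compared, and leaving out each library. After seeing the data 4 more were added: the 6 YTHDF1 RIP libraries that stood apart out of the fit, 2 other doubted libraries left out, each library left out with the tested genes and scaling factors kept, and a block across lines for inputs. The first 2 of these also keep them. The genes and lists were chosen with earlier results of these data known. The 9 writers are all named, and for each the 2 most correlated genes (those of VIRMA are not reported here); of the other pathway genes, the 3 YTHDF genes and MAT2A may be given by value.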

Additional observations from a re-analysis of the deposited data

Results flagged for a closer look

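The recovery of 7 writer messages in YTHDF1 RIP over input differed between lines, by the test of the difference itself: YTHDF1-ADAR cells minus the mean of YTHDF2-ADAR and YTHDF3-ADAR cells. The log2 difference was 2.90 for RBM15B, 1.77 for VIRMA, 1.30 for each of WTAP, RBM15 and CBLL1, 0.90 for METTL16 and -0.97 for METTL3 (edgeR quasi-likelihood test, adjusted p at most 0.000115). In the same contrast 69.3% of all tested genes were called, a share near that of the writers, so the count is not particular to them. The YTHDF1 RIP libraries from the 2 other lines held 0.657 to 4.28% snoRNA counts, against at most 0.539% in the remaining RIP libraries. The part of that in the differences was not tested. RBM15B is the writer with the largest share of exon (20.0%) that overlaps another gene.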

How the results depend on the processing

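Of 72 called differences of single writers, 31 kept direction and call in every alternative run, and 49 when any 1 library was left out with the tested genes and scaling factors kept. The 1 that turned direction was METTL16 in YTHDF1 RIP over input of YTHDF2-ADAR cells, 0.0760 by total counts. Under this scaling the median log2 fold change of all genes there was 0.72 in place of 0.20, and in YTHDF1 RIP of YTHDF3-ADAR cells 0.54 in place of 0.21. The number of the 9 writers called moved by over 1.5 times in few settings. With only the groups compared in the fit it was 2 in place of 5 (YTHDF2 RIP over input, YTHDF1-ADAR), 5 in place of 3 (YTHDF2 RIP over input, YTHDF3-ADAR), 1 in place of 3 (YTHDF2 over YTHDF3 RIP, YTHDF1-ADAR), 0 in place of 2 (input, YTHDF1-ADAR over YTHDF2-ADAR) and 2 in place of 0 (input, YTHDF2-ADAR over YTHDF3-ADAR; 1 by DESeq2). For YTHDF2 over YTHDF3 RIP in YTHDF3-ADAR cells it was 2 in place of 1 under DESeq2's size factors, total counts, no filter, the groups compared and the DESeq2 test. Without the filter it was 2 in place of 4 for YTHDF2 RIP over input and 1 in place of 2 for YTHDF2 over YTHDF3 RIP in YTHDF2-ADAR cells. With the 6 libraries that stood apart out of the fit it was 2 in place of 4 for YTHDF2 RIP over input in YTHDF2-ADAR cells and 1 in place of 2 for inputs of YTHDF1-ADAR over YTHDF2-ADAR cells. Without both doubted libraries of YTHDF1-ADAR cells it was 2 in place of 4 for YTHDF3 RIP over input and 0 in place of 2 for inputs of YTHDF1-ADAR over YTHDF2-ADAR cells. The 6 libraries' removal ended 7 calls (adjusted p = 0.0506 to 0.0736) and that of the doubted pair 7 (0.0555 to 0.255), among them METTL3 in YTHDF2 RIP over input of YTHDF1-ADAR cells (0.0555). Scaled by total counts, input levels were 11.1 RPKM for METTL3, 3.68 for METTL14, 4.98 for VIRMA, 22.5 for RBM15 and 17.8 for RBM15B.

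Libraries were first left out with filter and scaling refitted; that kept the same TMM reference library in only 2 of 36 fits and admitted 32615 to 32988 genes, so fits that keep both were added after seeing the data. In YTHDF1 RIP over input the median of all genes was -0.13 to 0.18 in YTHDF2-ADAR and -0.11 to 0.20 in YTHDF3-ADAR cells when refitted, and 0.19 to 0.21 and 0.20 to 0.23 when kept; METTL3 in the first then stood as low as -0.21 in place of 0.13. With refitted scaling 40 of the 72 held throughout. Over both forms the number of writers called ranged as follows. YTHDF1 RIP over input gave 4 to 8 in YTHDF1-ADAR, 6 to 6 in YTHDF2-ADAR and 4 to 7 in YTHDF3-ADAR cells. YTHDF2 RIP over input gave 4 to 6, 2 to 3 and 1 to 4, and YTHDF3 RIP over input 1 to 6, 1 to 4 and 2 to 4. YTHDF2 over YTHDF3 RIP gave 1 to 3, 1 to 2 and 1 to 2. Inputs gave 0 to 2 (YTHDF1-ADAR over YTHDF2-ADAR), 0 to 1 (YTHDF1-ADAR over YTHDF3-ADAR) and 0 to 0. With YTHDF1-ADAR cells set against the other lines, YTHDF1 RIP gave 7 to 9. In YTHDF1-ADAR cells YTHDF1 RIP gave 5 to 8 over YTHDF2 RIP and 4 to 6 over YTHDF3 RIP.

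Same-numbered libraries of a line deviated together (r over 0.1) in 7, 8 and 8 of 18 pairs. These mix RIP with RIP and RIP with input, and the main fit pairs none by number. In YTHDF3-ADAR cells, same-numbered YTHDF1 RIP and input had r of 0.144, 0.210 and 0.184, against -0.182 to -0.027 for unlike numbers. YTHDF2 RIP and input had 0.192, 0.152 and 0.328, against -0.235 to 0.130. YTHDF3 RIP and input had -0.156, 0.016 and 0.143, against -0.233 to 0.274. Same-numbered RIP and input ran from -0.557 to 0.258 in YTHDF1-ADAR and -0.432 to 0.439 in YTHDF2-ADAR cells. Whether the numbers pair libraries was not tested. A replicate block ended the call of METTL16 in YTHDF1 RIP over input of YTHDF1-ADAR cells (adjusted p = 0.0583), of METTL14 in YTHDF2 RIP over input of YTHDF2-ADAR cells (0.0596) and of RBM15 in YTHDF2 over YTHDF3 RIP of YTHDF1-ADAR cells (0.0507). A block across lines gave 4 called writers in place of 2 between YTHDF1-ADAR and YTHDF2-ADAR inputs. The fewest counts lay behind CBLL1, from 434 per input.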
